A study of Capra hircus with 6 samples.

Results

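HMCN1 (gene identifier 102175882) gave rise to 25 distinct circular RNAs (circRNAs) in pre-ovulatory ovarian follicles of goats, of 13950 distinct circRNAs in the whole series. The gene was chosen by the number of distinct circRNAs over all 6 libraries, the highest among the 784 host genes with a usable identifier. ARHGAP10 followed with 23, so the 25 circRNAs of HMCN1 are a description and carry no test. All 52 entries that carry this identifier were used, and 1 circRNA was 1 combination of chromosome, start, end and strand. Follicles came from 3 Boer and 3 Macheng black goats with normal cycles, 1 library per animal. Every animal of both breeds had received 1000 IU of PMSG, a gonadotropin that drives follicle growth, and 500 IU of hCG, which triggers ovulation, and there was no untreated group. Ribosomal RNA was removed from total RNA, and no digestion of linear RNA is named in the labels. Each table counts the reads across a back-splice junction, where the end of a downstream exon joins the start of an upstream one.

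HMCN1 encodes hemicentin 1, a very large secreted matrix protein with a von Willebrand factor A domain at its start, a long row of immunoglobulin-like domains, and fibulin-type domains at its end. It belongs to the fibulin family and is known for its place at basement membranes and cell junctions. In the follicle a basal lamina separates the granulosa cells from the theca and its vessels, and the matrix around these layers is remodelled when ovulation is triggered. A circRNA forms when the spliceosome joins a splice donor backwards to an acceptor that lies before it. Genes with many exons therefore offer many possible pairs, and the resulting closed molecules lack the ends at which linear RNA is degraded.

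Libraries held between 23480 (Macheng black 3) and 74796 (Boer 1) listed back-splice reads. No listed circRNA had under 2 reads, so absence from a table means 0 reads, 1 read or no call by the circRNA finder, and was entered into the tests as 0. Of 21 genes looked for as markers of granulosa, theca, oocyte, muscle, vessel and white blood cells, only NR5A2, a nuclear receptor of granulosa cells, was a usable host (33 reads over 4 circRNAs). CircRNA tables do not measure the messenger RNA of such genes, so the labelled tissue could not be checked with them. The sample code of Boer 2 differs in its last digit between the label and its file, so results are also given without Boer 2 where that matters.

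The 25 circles lay on the plus strand of chromosome 16, from position 64465000 to position 64838823 of the genome build of the files, which is not given in the sources used here. They are numbered here from 1 to 25 by start. This stretch of 373.8 kb held no circRNA of another host or of the other strand, and 47.4% of it lay inside at least 1 circle. Merged by overlap, the circles formed 11 separate groups. The longest gap without any circle, 51319 bases, lay between circle 1 and circle 2. A further gap of 39411 bases separated circle 23 from circle 24.

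**Figure D1:**
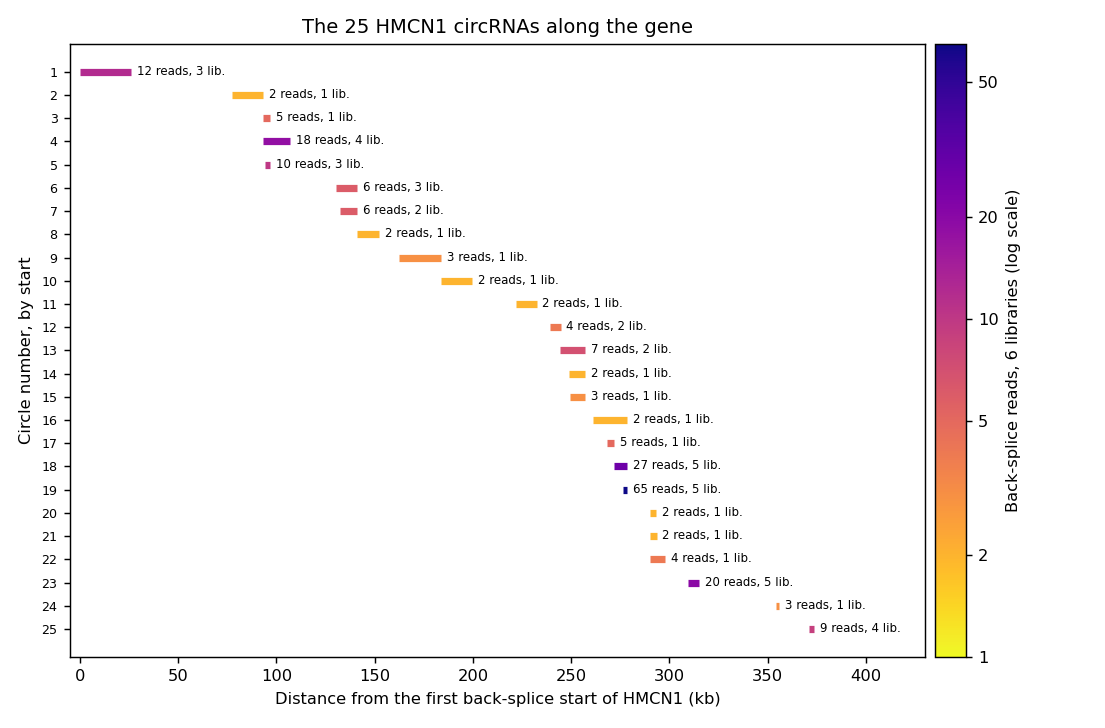
Position of the 25 HMCN1 circRNAs (rows, numbered by start) as distance in kb from the first back-splice start, with the colour giving the back-splice reads over 6 libraries on a log scale and the text giving reads and libraries. Most circles had few reads, and the one with the most, circle 19 with 65 reads, is among the shortest and lies 276.5 kb into the stretch.

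Reads were concentrated in a single group of circles. The group from 64726214 to 64743519, with circles 16 to 19, held 99 of the 223 HMCN1 reads (44.4%), and it was the only one of the 11 groups listed in all 6 libraries. Its reads were 34, 8 and 6 in Boer 1 to 3 and 9, 23 and 19 in Macheng black 1 to 3. The group from 64542385 to 64572135, with circles 2 to 5, held 35 reads (15.7%). It was listed in Boer 1 with 7 reads, in none of the other Boer libraries, and in all Macheng black libraries with 11, 11 and 6 reads. The group from 64595549 to 64617059, with circles 6 to 8, held 14 reads and was listed in Boer libraries only, with 5, 2 and 7 reads. These groups were built and singled out after their values were seen and carry no test.

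The circles shared many of their splice sites. The 25 circles used 22 starts and 19 ends, and 14 of them shared a start or an end with another circle. Those 14 circles held 159 reads, 71.3% of the total. The end at 64743519 closed circles 16, 18 and 19 and carried 94 reads, more than any other site that circles shared. The end at 64721957 closed circles 13, 14 and 15 with 12 reads. A common start at 64755152 opened circles 20, 21 and 22, which had 8 reads together, each listed in 1 library. The start at 64558157 opened circles 3 and 4, the end at 64561750 closed circles 3 and 5, and the end at 64606030 closed circles 6 and 7.

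In 5 places, 1 exon was the last of a circle and the first of another. The exon from 64736906 to 64737019 ended circle 17 and began circle 18. Those from 64709464 to 64709631 and from 64648564 to 64648718 ended circles 12 and 9 and began circles 13 and 10. The exon from 64605872 to 64606030 ended circles 6 and 7 and began circle 8, and that from 64558157 to 64558277 ended circle 2 and began circles 3 and 4. Both splice sites of each of these exons thus took part in back-splicing, and 12 of the 25 circles began or ended at such an exon.

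Every circle began at the start and ended at the end of an exon or of a short stretch that the part lists leave out. Such a stretch at a border was measured from the border itself, so for 13 starts and 12 ends this could not come out otherwise. The deposited lists name the exons and introns inside each circle, and over the HMCN1 circles they name 33 distinct exons and 54 distinct introns. They do not cover the circles fully. A further 33 stretches between listed introns, or between an intron and the end of a circle, are in no list. By their position these are taken here as exons. No exon or intron shorter than 150 bases was listed anywhere in the series, among 5422 exon and 35496 intron parts. The listed HMCN1 exons measured from 150 to 282 bases with a median of 177. The unlisted stretches had a median of 122 bases, and 30 of the 33 were under 150 bases. The other 3 measured 151, 155 and 444 bases.

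**Figure D2:**
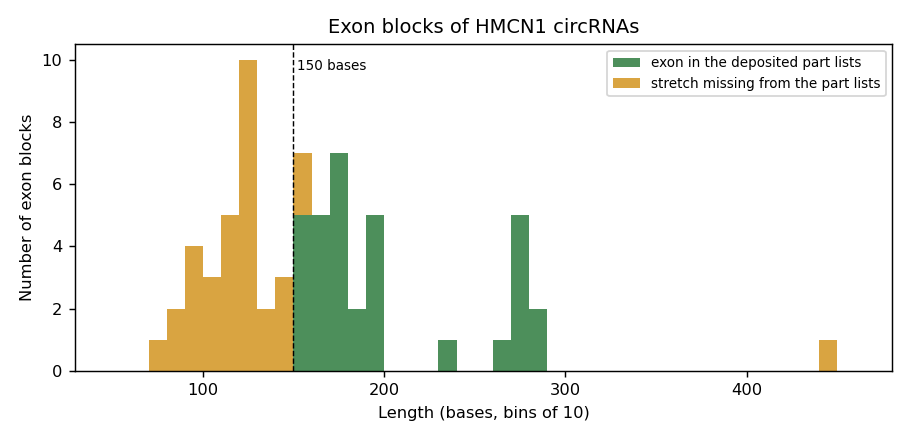
Number of distinct exon blocks of HMCN1 circRNAs (y axis) by length in bases in bins of 10 (x axis), with green for the 33 listed exons and yellow for the 33 stretches missing from the deposited lists. Nearly all missing stretches lie below the dashed line at 150 bases, and no listed exon does.

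The omission touched most circles. Of the 25, 23 had at least 1 stretch missing from their list, and 13 began and 12 ended in a stretch not listed as an exon for that circle. The exon from 64835923 to 64836072, exactly 150 bases long, was listed for circle 25 in Macheng black 2 and not in the other 3 libraries with that circle. Its deposited spliced length was accordingly 2641 bases in Macheng black 2. With the unlisted stretches counted as exons, circles held from 2 to 10 exons with a median of 3, where the lists alone give a median of 1. No circle consisted of a single exon, 5 had 2 exons and 10 had 3. The 5 circles with 2 exons held 82 reads, 65 of them from circle 19, and the 10 with 3 exons held 84. The 6 circles with 4 or 5 exons held 48, and the 4 with 6 or more held 9.

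**Figure D3:**
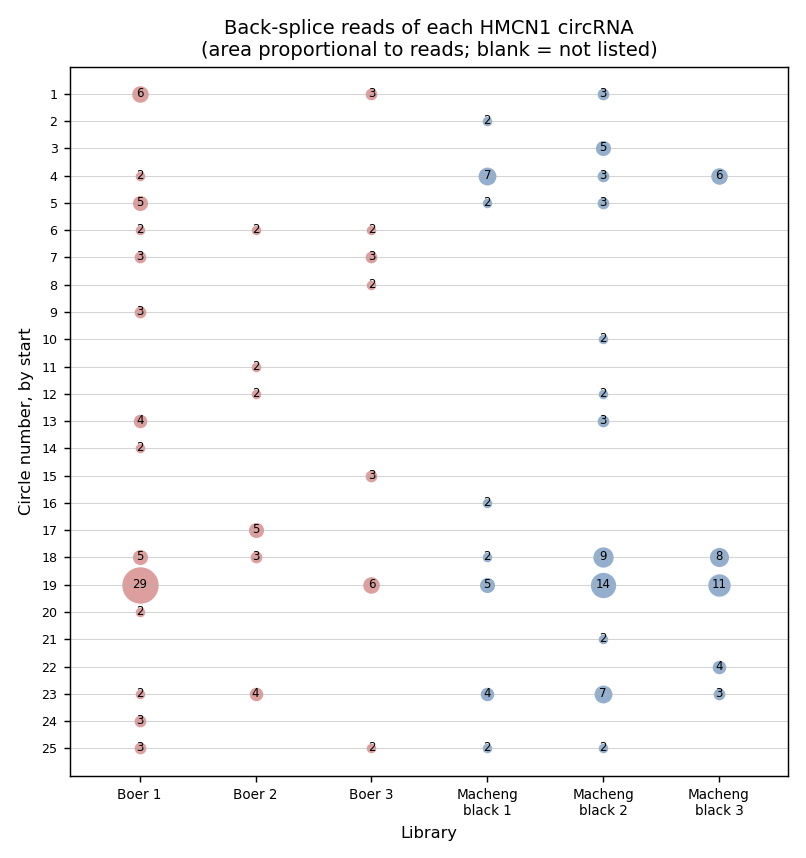
Back-splice reads of each of the 25 HMCN1 circRNAs (rows, numbered by start) in each library (columns, red for Boer and blue for Macheng black), with the dot area proportional to the reads, which are printed on the dot. Circles 18, 19 and 23 appear in 5 libraries each, 14 circles appear in 1, and no circle appears in all 6.

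The deposited spliced length ranged from 1186 to 25872 bases and contains the listed introns, which made up between 43.5% and 98.7% of the span of a circle (median 92.5%). Exons alone, the unlisted stretches included, came to between 279 and 1860 bases per circle. The files do not say whether introns stayed in any circle. If they did not, the spliced length overstates the circle. For circle 19 the deposited spliced length was 1893 bases, whereas its 2 exons, 1 of 188 listed and 1 of 97 unlisted bases, summed to 285 bases.

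Many listed exons had a length divisible by 3. This held for 21 of the 33 listed HMCN1 exons (63.6%), against 35.6% of the 1450 distinct exons listed for all other usable hosts. Among the 33 unlisted stretches it held for 11, and over all 66 listed exons and unlisted stretches together for 32 (48.5%). As background, an exon whose length is a multiple of 3 can be joined or skipped without shifting the reading frame, and exons that encode repeated domains often have this property. Summed over exons, the unlisted stretches included, 15 of the 25 circles had a total divisible by 3. Circles share exons, and no value for other hosts stands beside this count. Exons of 1 gene are not independent observations, and no test was made.

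Introns at the borders of circles could be measured where another circle listed them. This was so for the upstream side of 12 circles and the downstream side of 10. The upstream introns ran from 696 to 12047 bases with a median of 3286, and the downstream ones from 212 to 10834 bases with a median of 4301. The median of all 54 listed introns, the border ones included and each counted once, was 1778.5 bases. The border medians count an intron once per circle, and their values come from 16 distinct introns, so the medians are not weighted alike. Introns before circle 19 and after circle 17 are the same one of 4510 bases. The introns before the first start and after the last end were in no list, so this comparison covers only borders inside the stretch.

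Circle 19, at chromosome 16 from 64741530 to 64743519, was the dominant HMCN1 circRNA. It had 29, 0 and 6 reads in Boer 1 to 3 and 5, 14 and 11 reads in Macheng black 1 to 3, 65 of 223 reads (29.2%) in all. It was the first circle by reads in 4 libraries, behind circle 4 in Macheng black 1 and not listed in Boer 2. Scaled to a library of 1000000 reads (CPM, after TMM normalization), its mean level in the Boer goats was 196 CPM (SD 229, n = 3). In the Macheng black goats the mean was 288 CPM (SD 140, n = 3). The breeds overlapped, since Boer 1 with 448 CPM was the highest library and Boer 2 the lowest. The difference was smaller than the spread between animals (log2 fold change of Boer over Macheng black -0.38 ± 0.70, SE; edgeR quasi-likelihood test, adjusted p = 0.9998). Without Boer 2 the value turned to 0.098.

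Circle 18, from 64736906 to 64743519, shares the end of circle 19 and begins 1 intron and 1 exon earlier. Its 3 exons came to 399 bases. It had 5, 3 and 0 reads in Boer and 2, 9 and 8 reads in Macheng black. The mean over the Boer goats was 60.0 CPM (SD 53.5, n = 3), that over the Macheng black goats 186 CPM (SD 125, n = 3), with overlapping breeds and a log2 fold change of -1.59 ± 1.15 (SE; edgeR adjusted p = 0.9998). Of the reads of circles 18 and 19 together, the shorter circle took 29 of 34 in Boer 1, 6 of 6 in Boer 3, and 5 of 7, 14 of 23 and 11 of 19 in the Macheng black libraries. Boer 2 had 3 reads of the longer circle and listed none of the shorter, the reverse of the other 5 libraries.

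Circle 16, from 64726214 to 64743519, ends at the same site after 8 exons and had 2 reads in Macheng black 1. Circle 17, from 64733246 to 64737019, had 5 reads in Boer 2, where it was the most abundant HMCN1 circRNA, and was not listed elsewhere.

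Circle 23, from 64774477 to 64780015, had 3 exons of 416 bases together and no overlap with any other circle. Its reads were 2, 4 and 0 in Boer and 4, 7 and 3 in Macheng black. The levels were 55.9 ± 71.8 CPM and 126 ± 23.2 CPM (SD, n = 3 each), with a log2 fold change of -1.27 ± 1.37 (SE; edgeR adjusted p = 0.9998). Boer 2, with 137 CPM, lay within the Macheng black range of 112 to 153 CPM, so the breeds overlapped through this library alone. Without it the log2 fold change was -2.69 (edgeR adjusted p = 0.999), and without Boer 3 it was -0.63.

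Circle 4, from 64558157 to 64572135, had 5 exons of 928 bases together, the most exons of any circle listed in 3 or more libraries. Of the Boer libraries only Boer 1 listed it, with 2 reads, while Macheng black 1 to 3 had 7, 3 and 6. All 3 Macheng black libraries, at 195, 65.6 and 228 CPM, were above the single Boer library that listed it, at 30.9 CPM. The Boer mean was 10.3 CPM (SD 17.9, n = 3) and the Macheng black mean 163 CPM (SD 86.0, n = 3). The log2 fold change of -3.35 ± 1.54 (SE) did not pass over all circRNAs (edgeR adjusted p = 0.887, unadjusted p = 0.0371). Over the alternatives that could be fitted it ranged from -5.56 to -2.88. The -5.56 is from the fit without Boer 1, where no remaining Boer library listed circle 4, so its size rests on values entered as 0. Circle 4 reached 2 reads in 3 libraries through Macheng black by itself, so the unadjusted p is no support for a breed difference.

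Circle 6, from 64595549 to 64606030, showed the opposite pattern at the limit of listing. It had 2 reads in each Boer library, the fewest a listed circRNA can have, and was listed in no Macheng black library. No fold is given, because 1 unlisted read in Macheng black 3 would be worth 38.1 CPM, above the 30.9 CPM of Boer 1. The edgeR test gave an adjusted p of 0.958 (unadjusted p = 0.0510). Circle 6 entered this test only because each Boer library reached 2 reads, so the p is no support for a breed difference. Circle 7, which shares its end, had 3 reads in Boer 1 and 3 in Boer 3, and circle 8, whose first exon is the last of both, had 2 reads in Boer 3.

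The remaining tested circles were thinner still. Circle 1, from 64465000 to 64491065, opens the stretch and spans 26066 bases, the longest of the 25, although its 3 exons came to only 353 bases. It had 6, 0 and 3 reads in Boer and 0, 3 and 0 in Macheng black (log2 fold change 1.13 ± 1.74, SE; edgeR adjusted p = 0.9998). Without Macheng black 2 the value was 4.26 and without Boer 1 it was 0.56. The 4.26 rests on values entered as 0, since no other Macheng black library listed circle 1. Circle 5, from 64559340 to 64561750, was listed with 5 reads in Boer 1, 2 in Macheng black 1 and 3 in Macheng black 2 (-0.49 ± 1.70, SE; adjusted p = 0.9998). Circle 25, from 64835923 to 64838823, closes the stretch and had 3, 0 and 2 reads in Boer and 2, 2 and 0 in Macheng black (-0.066 ± 1.67, SE; adjusted p = 0.9998). In all 3 the breeds overlapped.

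These 8 circles, listed in at least 3 libraries, are those that entered the test, and they held 167 of the 223 reads (74.9%). None of the 8 passed an adjusted p of 0.05 with edgeR, where 0.350% of the 3712 tested circRNAs passed, and none passed with DESeq2. At an unadjusted p under 0.05 there was 1 of 8 with either tool, circle 4, against 5.23% of all tested circRNAs with edgeR and 3.05% with DESeq2. With unlisted circRNAs entered as 0, the breeds did not overlap in 2 of the 8. Circle 4 was higher in Macheng black, where 4.80% of tested circRNAs were higher without overlap. Circle 6 was higher in Boer, where 6.92% were, but for circle 6 this holds only with the unlisted values at 0. Circle 6 also entered the test only through its 3 Boer libraries, so its lack of overlap followed from the filter and is no support for a difference. Circle 4 met the filter through its 3 Macheng black libraries by themselves, where it was high. Its unadjusted p and its lack of overlap are therefore no support for a difference either. The SE of the 8 log2 fold changes ran from 0.70 to 1.99. A p above the threshold does not show that the breeds have equal levels.

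The other 17 circles were listed in 1 or 2 libraries and held 56 reads, between 2 and 7 each. Circles 12 and 13 were listed in both breeds. Circle 12 had 2 reads in Boer 2 and 2 in Macheng black 2, and circle 13 had 4 in Boer 1 and 3 in Macheng black 2. Circle 13 runs from 64709464 to 64721957, and circles 14 and 15, nested in it, begin at the next 2 exons and share its end. Circle 14 had 2 reads in Boer 1, and circle 15 had 3 in Boer 3.

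The 4 circles with 6 or more exons were each listed in a single library. Circle 9, from 64627538 to 64648718, holds 10 exons of up to 1860 bases together, the most of all, and had 3 reads in Boer 1. 1 of these exons is the unlisted stretch of 444 bases, whose length does not explain why it was left out. The exon count and length of circle 9 are therefore uncertain. Circle 10, which begins with the last exon of circle 9, had 2 reads in Macheng black 2, and circle 11, with 6 exons, 2 reads in Boer 2. Circle 24 spans 1321 bases, the shortest span of all, with 3 listed exons, and had 3 reads in Boer 1. Between its last 2 exons lies an unlisted stretch of 135 bases, taken as an intron. Circle 2 had 2 reads in Macheng black 1, circle 3 had 5 in Macheng black 2, and circles 20, 21 and 22 had 2 reads in Boer 1, 2 in Macheng black 2 and 4 in Macheng black 3.

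Recurrence of HMCN1 circles was like that of other circRNAs. Of the 25, 14 (56.0%) were listed in 1 library, against 55.8% of 2021 circRNAs of other usable hosts and 59.3% of all circRNAs. Listing by breed gave 9 circles in both, 10 in Boer only and 6 in Macheng black only. The 14 circles of 1 library fall in 1 breed by definition, and Boer 1 had the most listed reads. No share over all circRNAs stands beside these counts, so they are not a breed comparison. The median number of reads per circle was 4 both in HMCN1 and among the circRNAs of other hosts. Their median span was 6513 bases, and that of HMCN1 circles 7832 bases.

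The number of distinct HMCN1 circles per library was 14, 6 and 7 in Boer and 8, 12 and 5 in Macheng black. The Boer mean was 9 (SD 4.36, n = 3) and the Macheng black mean 8.33 (SD 3.51, n = 3), with a two-sided p of 0.9 by exact permutation, where 3 animals against 3 cannot give a p below 0.1. The 2 libraries with the most reads, Boer 1 and Macheng black 2, listed the most circles. After thinning each library to 23480 reads, the expected number of circles with at least 2 reads was 4.41, 5.66 and 3.69 in Boer and 4.53, 6.46 and 5.00 in Macheng black. The difference then turned from 0.667 to -0.741 circles (two-sided p = 0.4 by exact permutation).

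Summed over its circles, HMCN1 ranked 45 by reads among the 784 usable hosts. ARHGAP10 had 2925 reads over its 23 circRNAs, CEP112 755 over 19, MED17 912 over 16 and SENP6 477 over 14. Reads per circRNA were 8.92 on average in HMCN1, against between 34.1 and 127 in these 4 hosts. The most abundant circRNA took 72.3% of the reads in ARHGAP10 and 58.7% in SENP6, but 29.2% in HMCN1, close to MED17 with 26.8% and CEP112 with 23.7%.

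HMCN1 circles took 0.0949%, 0.0723% and 0.0506% of all listed back-splice reads in Boer 1 to 3. In Macheng black 1 to 3 they took 0.0666%, 0.112% and 0.136%. The counts behind these shares were 71, 18 and 21 reads and 26, 55 and 32 reads. Macheng black 2 and 3 were above each Boer library, and Macheng black 1 lay among the Boer libraries. The exact (Clopper-Pearson) 95% intervals, which cover counting error only, were widest in Macheng black 3, from 0.0932% to 0.192%, and reached from 0.0313% to 0.0773% in Boer 3. The Boer mean was 0.0726% (SD 0.0222, n = 3) and the Macheng black mean 0.105% (SD 0.0354, n = 3), with a two-sided p of 0.3 by exact permutation. In bulk follicle RNA, the number of cells that make these circles and the number of circles per cell cannot be told apart.

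**Figure D4:**
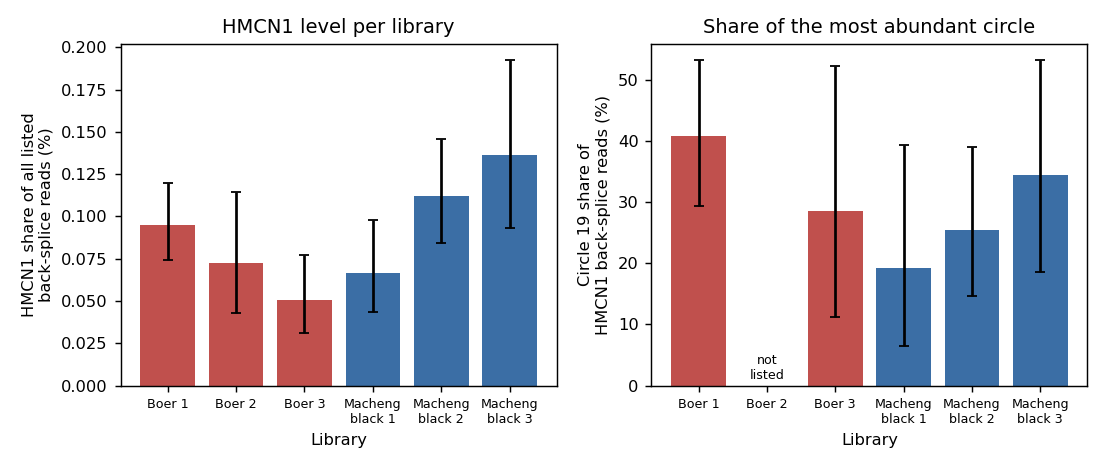
HMCN1 share of all listed back-splice reads in percent (left) and share of circle 19 in the HMCN1 back-splice reads in percent (right) for each library, red for Boer and blue for Macheng black, with bars for exact 95% intervals. The intervals cover counting error only, not the spread between animals. On the left the interval of Boer 3 lies below those of Macheng black 2 and 3 and overlaps that of Macheng black 1. Those of Boer 1 and 2 overlap each Macheng black interval. On the right circle 19 was not listed in Boer 2.

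On the scale of reads from usable hosts, Boer 1 to 3 had 5772, 4083 and 2837 CPM of HMCN1, and Macheng black 1 to 3 had 4235, 6884 and 7136 CPM. Means were 4231 ± 1473 and 6085 ± 1607 CPM (SD, n = 3 each), and Macheng black 1 lay within the Boer range. The log2 fold change was -0.50 ± 0.37 (SE) and did not pass (edgeR quasi-likelihood test, adjusted p = 0.968), where 1.15% of 434 tested hosts did. It remained negative under each of the 12 alternatives, between -0.83 and -0.30. The median over all tested hosts was 0.090.

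Use of the circles within the gene was not found to differ between the breeds. The test of relative use over the 8 tested circles gave an adjusted p of 0.999 (edgeR diffSpliceDGE, Simes p per gene). By this test, 0% of 122 hosts with at least 2 tested circRNAs passed. Circle 19 took 40.8%, 0% and 28.6% of the HMCN1 reads in Boer and 19.2%, 25.5% and 34.4% in Macheng black. The means of 23.1% ± 21.0 and 26.4% ± 7.62 differed by less than their spread (SD, n = 3 each; two-sided p = 0.9 by exact permutation). Leaving out Boer 2, the difference turned from -3.21 to 8.36 percentage points. The mean span weighted by reads was 6947, 6277 and 8903 bases in Boer and 8470, 6619 and 6457 bases in Macheng black (two-sided p = 0.7 by exact permutation).

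The files also count reads called non-junction reads for each circle, without a definition. For the 52 HMCN1 entries they ranged from 40 to 1084 with a median of 157. These numbers tended to grow with the span of the circle, but the longest, circle 1, had only 175, 170 and 200 in Boer 1, Boer 3 and Macheng black 2. Over the 52 entries, the correlation of log2 non-junction reads with log2 span was r = 0.758 (Spearman rho 0.782), while that of log2 back-splice reads with log2 span was r = -0.270. With the summed exon length in place of the span, the first value was r = 0.649 (rho 0.546). The entries share libraries, and overlapping circles can share reads, so these values only describe the table. A count that grows with span is larger for a long circle whatever the amount of the circle, so shares are best compared within 1 circle.

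**Figure D5:**
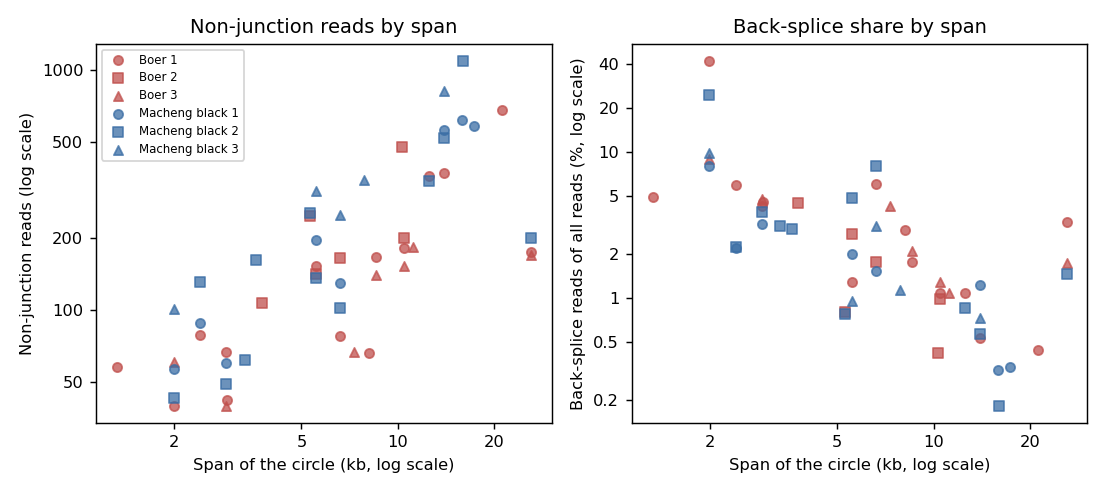
Non-junction reads (left) and back-splice reads as a percentage of back-splice plus non-junction reads (right) of the 52 HMCN1 entries by span of the circle in kb, all axes on log scales, with red for Boer, blue for Macheng black and shapes for the animals. Non-junction reads run from 40 to 1084 and tend to rise with span, although the longest circle, circle 1, has only 170 to 200. The share is highest, 42.0%, for circle 19 in Boer 1.

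Back-splice reads were a small part of the reads of most HMCN1 circles. Their share of back-splice plus non-junction reads ran from 0.184% (circle 10 in Macheng black 2) to 42.0% (circle 19 in Boer 1), with a median of 2.05% over the 52 entries. The median over 4461 entries of other usable hosts was 2.54%. Circle 19 stood at 42.0% and 8.96% in Boer 1 and 3 and at 8.07%, 24.6% and 9.82% in Macheng black. Its non-junction reads were 40 and 61 in those Boer libraries and 57, 43 and 101 in Macheng black, so Boer 1 and Macheng black 2 combined the most back-splice reads with the fewest non-junction reads.

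Circle 18, with the same end, had shares of 6.02% and 1.79% in Boer 1 and 2 and of 1.53%, 8.11% and 3.11% in Macheng black. In each of the 4 libraries that listed both circles, the share of circle 19 was higher than that of circle 18, which spans 6614 bases against 1990. Circle 19 lies wholly inside circle 18, and non-junction reads tended to grow with span, so these 2 shares do not compare like with like. Circle 4, at 13979 bases, had between 0.535% and 1.23% in its 4 libraries. Circle 25, at 2901 bases, had between 3.23% and 4.76% in its 4 libraries, the narrowest relative range among the circles with 4 or more entries.

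Summed over its circles, HMCN1 had 2.74%, 1.33% and 2.52% back-splice reads in Boer and 1.12%, 1.75% and 1.72% in Macheng black. The means were 2.20% ± 0.760 and 1.53% ± 0.356 (SD, n = 3 each; two-sided p = 0.3 by exact permutation), and Boer 2 lay within the Macheng black range. The difference of 0.667 percentage points was smaller than the Boer SD and larger than the Macheng black SD. Without Boer 2, whose sample code is in doubt, it was 1.10 points and the breeds did not overlap. The two-sided exact permutation p was then 0.1, the smallest that 2 animals against 3 can give. The listed circles differ between libraries, and overlapping circles can share non-junction reads, so these sums do not compare like with like. With the median over the listed circles in place of the sum, and all libraries, the difference was 0.365 points (two-sided p = 0.6 by exact permutation). The summed share over all circRNAs of a library was 2.22%, 1.05% and 1.48% in Boer and 1.73%, 1.46% and 0.861% in Macheng black. The density of non-junction reads moved with the libraries too. Its median over the listed HMCN1 circles was 21.6, 26.9 and 14.5 reads per kb of span in Boer and 34.6, 26.1 and 50.8 in Macheng black. Its part in the shares was not tested.

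Other matrix genes were compared from a list of 71 genes of basement membrane, fibrillar matrix and matrix receptors. Of these, 9 were usable hosts and 6 could be tested, 4 with a positive and 2 with a negative log2 fold change and a median of 0.63, against 0.090 over all tested hosts. None of the 6 passed an adjusted p of 0.05 with edgeR or DESeq2, where 1.15% of all tested hosts passed with edgeR. At an unadjusted p under 0.05 there was 1 of 6 with edgeR, against 6.91% of all tested hosts, and 0 with DESeq2, against 4.38%. COL12A1, a collagen that binds to fibrils, had 12 circRNAs, with 55, 8 and 8 reads in Boer and 10, 9 and 9 in Macheng black. COL14A1, a related collagen, had 9 circRNAs, with 32, 5 and 10 reads and 26, 13 and 3 reads.

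ITGB1, the beta subunit of many matrix receptors, had 30, 2 and 14 reads in Boer and 5, 3 and 2 in Macheng black over 2 circRNAs. Its log2 fold change was 1.61 ± 0.76 (SE; edgeR adjusted p = 0.570), and it was the gene with an unadjusted p under 0.05. LAMC1, a laminin chain of basement membranes, had 14, 5 and 12 reads in Boer and 2, 10 and 3 in Macheng black. HSPG2, which encodes the basement membrane proteoglycan perlecan, had 3, 4 and 9 reads and 2, 3 and 9 reads. FBLN1, a fibulin like HMCN1, gave 2 circRNAs and 7 reads in all.

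Across the 6 libraries, the tested hosts whose log2 CPM ran most like that of HMCN1 were THADA (Pearson r = 0.973), FGFR1OP (r = 0.904), SRD5A1 (r = 0.901), ZNF239 (r = 0.898) and KIAA1468 (r = 0.895). These are the 5 highest of 433 values over 6 libraries and a description only. THADA stood at 1219, 454 and 0 CPM in Boer 1 to 3 and at 489, 1252 and 1338 CPM in Macheng black 1 to 3, so it was lowest in Boer 3, as HMCN1 was. The other 4 had no listed read in Boer 2 and 3, and their likeness rests on which libraries listed them.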

How the data were processed

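The authors deposited 1 table per library with whole-number counts of back-splice and non-junction reads and other values (span and spliced length in bases), per the file headers. The submitters' processing notes name Bowtie2 2.0.6 and TopHat2. For the circRNA caller, its thresholds, build and annotation nothing is given in the sources used here. Starts count from 0 in the files, and 1 was added. Host identifiers found on several chromosomes or with a listed part over 1 Mb were set aside (27 of 829). Gene symbols were matched by identifier in a RefSeq table (ARS1.2), whose coordinates were not used.

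CircRNAs and hosts that reached 2 reads in 3 or more libraries entered edgeR 4.0.16 in R 4.3.3 (quasi-likelihood, TMM, Benjamini-Hochberg), with DESeq2 1.42.0 as an alternative. The SE is the log2 fold change divided by the square root of F. Library values were compared by exact permutation tests (Python 3.11.15). An edgeR fit of the same kind was also run on simulated counts, and the other steps were not tested in this way. 1 read was worth 15.5 to 38.1 CPM. Named items were every HMCN1 circRNA, the 5 matrix hosts with the most reads and the 5 hosts most like HMCN1; FBLN1 was added after its values were seen. Members and lists were chosen with earlier results of these data known.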

Additional observations from a re-analysis of the deposited data

How the results depend on the processing

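The summed HMCN1 test, the count of HMCN1 circRNAs past the threshold (0), the count of matrix hosts (0) and the test of relative use kept their direction and side of the threshold in every alternative run. Some differences that were small against the spread changed sign with the processing or when 1 library was left out, and the cause was not tested. The difference in distinct HMCN1 circRNAs, 0.667, became -1 with at least 5 reads and -0.741 after thinning, and leaving out 1 library gave -1.83 to 2.50. The difference in the share of circle 19, -3.21 points, became 1.23 among circles listed in at least 3 libraries, and ran from -12.1 to 8.36 without 1 library. The difference in read-weighted span, 194 bases, ran from -570 to 838 without 1 library. Without 1 library, the log2 fold change of circle 19 ran from -1.82 to 0.098. That of circle 23 ran from -2.69 to -0.63 and that of circle 25 from -0.50 to 0.39. That of circle 1 ran from 0.56 to 4.26 and that of circle 5 from -3.71 to 0.0080. The 4.26 and -3.71 come from fits in which 1 breed listed no read of the circle. Their size rests on values entered as 0. The log2 fold changes of circles 1, 4, 18 and 23 kept their sign in every alternative that could be fitted. The difference in back-splice share also kept its sign, between 0.365 and 1.10 points. Same-numbered animals of the 2 breeds share only a number: the correlations of their deviations from the breed means were between -0.0393 and 0.0118, and not every library correlated best with its own number. With the replicate number as a block the summed log2 fold change was -0.52 and no HMCN1 circRNA passed. With at least 5 reads in 3 libraries, 2 HMCN1 circRNAs were left to test. Scaling HMCN1 to all listed reads, added after the data were seen, gave -0.48. HMCN1 had at most 71 reads in any library, and each breed had 3 animals.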
